A study of Zea mays subsp. mays with 2 samples.

Results

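Short transcribed loci of the maize nuclear genome, chosen by length alone, are described here. A short locus lies on chromosomes 1 to 10, is the only locus listed at its position and has a span (end minus start) over 110 and up to 300 bases. Of the 29674 loci in the deposited table, 24534 were nuclear and alone at their position, and 738 of these were short. Neither level nor organ took part in the choice. The study sequenced polyadenylated RNA from B73, the inbred line of the maize reference genome, with shoots and roots harvested apart 14 days after germination. No treatment is named in the labels. Each organ gave 1 library, read from both ends for 100 cycles with a kit that does not mark strand. There are no replicates, so each difference is between these 2 libraries, the spread between plants was not measured, and no p-value is given.

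Short loci in a transcript assembly can be several things. Plant genomes make short noncoding RNAs, such as small nucleolar RNAs and the hairpin precursors of microRNAs, and an assembler can also list pieces of longer transcripts that were covered in part. Length-scaled units divide by the stretch in which a fragment can start, which becomes very small when a transcript is about as long as a fragment. The table holds no gene names, exon structures or classes, so which kind a given short locus belongs to was not analysed here. Coordinates are on B73 RefGen_v2, as deposited.

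Levels are in FPKM, fragment numbers scaled by sequencing depth and by length, where the length applied to a short locus was not its plain span. In shoot the median short locus was at 19.1 FPKM (quartiles 4.39 and 99.1), and in root at 16.7 FPKM (quartiles 3.23 and 85.0). For the 23796 other nuclear loci alone at their position the medians were 10.4 FPKM (shoot) and 9.83 FPKM (root), and for the 640 loci of over 300 to 500 bases 3.33 and 3.01 FPKM. The upper end differed more: the 90th percentile of short loci was 477 FPKM (shoot) and 424 FPKM (root), while that of the others was 66.3 and 69.5 FPKM. When FPKM were summed over the table, short loci held 10.6% of the shoot total and 11.3% of the root total. Of that share, the top 2 loci held 33.8% in shoot and 31.2% in root.

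Level fell steeply with span inside the class. The 166 loci of up to 150 bases had medians of 245 FPKM (shoot) and 137 FPKM (root). For the 199 loci of over 150 to 200 bases these were 20.4 and 17.9 FPKM, and for the 181 of over 200 to 250 bases 9.35 and 9.11 FPKM. The 192 longest, of over 250 to 300 bases, had medians of 3.90 FPKM (shoot) and 3.56 FPKM (root). At the lower limit of the choice, the shortest locus inside showed 1861 FPKM (shoot) and 2414 FPKM (root), and the locus of 110 bases just outside showed 5635 and 4198 FPKM. At the upper limit, the 8 loci of 300 bases had medians of 10.4 and 9.84 FPKM, and the 4 loci that were 1 base longer had medians of 9.63 and 8.26 FPKM.

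The values carried a record of how many fragments lay behind them. At many spans, most loci of equal span had FPKM in whole-number ratios. Among root values at 119 bases, 7 were 38.1, 457, 647, 1104, 1637, 1713 and 1942 FPKM, which are 1, 12, 17, 29, 43, 45 and 51 times the smallest within 0.03. Among shoot values at 157 bases, 6 were 1.79, 19.7, 23.2, 33.9, 46.4 and 347 FPKM, or 1, 11, 13, 19, 26 and 194 times the smallest. The largest step that divides the values of a span into whole numbers was taken as the worth of 1 fragment at that span. It was found for 34 spans in shoot and 35 in root. After steps off by a whole factor had been corrected, a smooth curve passed within 0.228% of 31 shoot steps and within 0.220% of 34 root steps. Without such a correction stood 23 of the shoot steps and 24 of the root steps. Steps more than 1% off were left out, so the closeness of the rest is in part set by the rule.

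The worth of 1 fragment fell across the class. At the shortest span it was 143 FPKM (shoot) and 142 FPKM (root), and at 300 bases 0.101 and 0.0895 FPKM. Steps were found from 112 bases up to 279 in shoot and 278 in root, so the curve beyond those spans is extrapolated. Read off the curve, 84.8% of the 328 shoot values under 20 fragments came within 0.1 of a whole fragment, as did 82.5% of the 309 root values. Evenly spread values would come that close in 20% of cases, but the curve was fitted to these same values. Of the 559 shoot values under 100 fragments 73.3% did, and of the 523 root values 73.2%. Fragment numbers that were not whole are estimates. Up to a span of 170 bases in shoot and 168 in root, a single fragment was worth 1 FPKM or more.

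**Figure D1:**
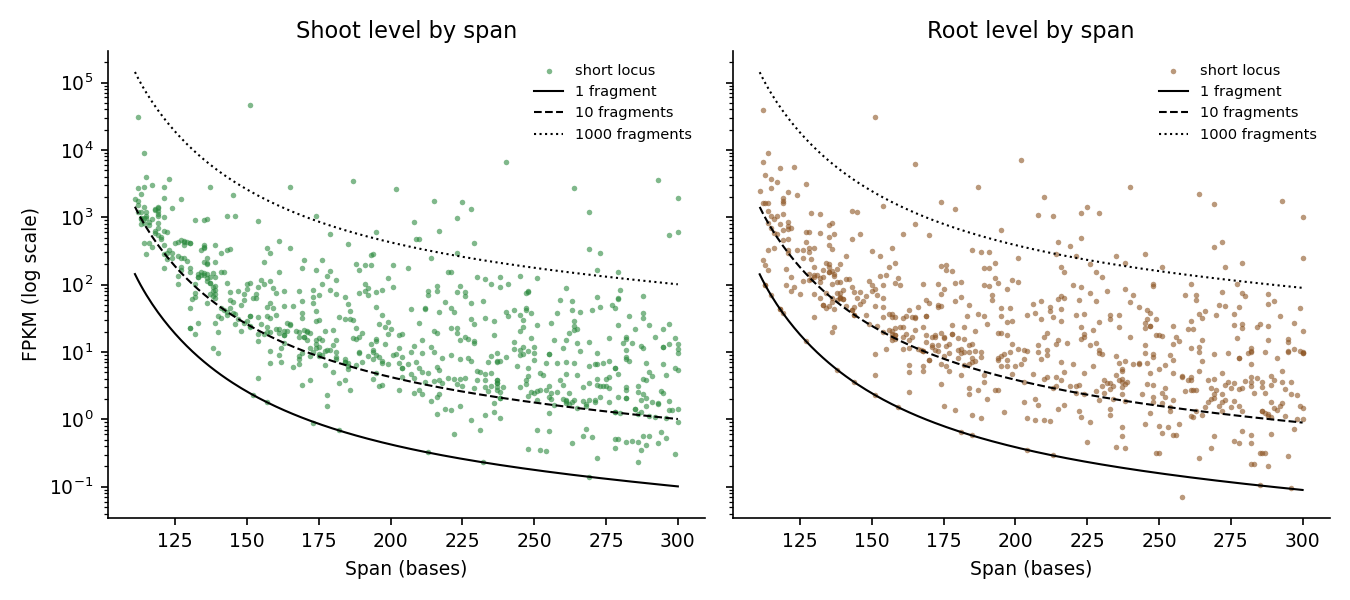
Level of each short locus above 0 in shoot (left) and root (right) against its span in bases, with FPKM on a log scale; lines mark the level that 1, 10 and 1000 fragments give at each span. The lower edge of most points follows the line of 10 fragments, and the median shoot level falls from 245 to 3.90 FPKM between the shortest and the longest span class.

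In fragments, the median rose with span up to 250 bases and was lower again above, unlike the fall in FPKM. The median total of both organs was 29.7 fragments up to 150 bases, 39.999 over 150 to 200, 73.9 over 200 to 250 and 54.3 over 250 to 300. Across the 738 loci, the Spearman coefficient of span was -0.65 with mean FPKM and 0.23 with total fragments. The points share the same 2 libraries and are not independent. The whole class had a median total of 43.5 fragments, with quartiles of 23.0 and 170.4. Fewer than 50 fragments lay behind 391 loci (53.0%), and more than 1000 behind 51 (6.91%).

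Every short locus rested on about 10 fragments or more in at least 1 organ. The smallest number in the higher organ was 9.97, and 32 loci lay at 10 when rounded, 27 at 11 and 26 at 12. Each locus of the table was above 1 FPKM in an organ, but at the shortest spans the lowest short loci stood far above that level, since 10 fragments are worth much more there. The labels name no minimum of fragments. In both organs 451 loci (61.1%) reached 10 fragments, in shoot alone 164 (22.2%) and in root alone 123 (16.7%).

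**Figure D2:**
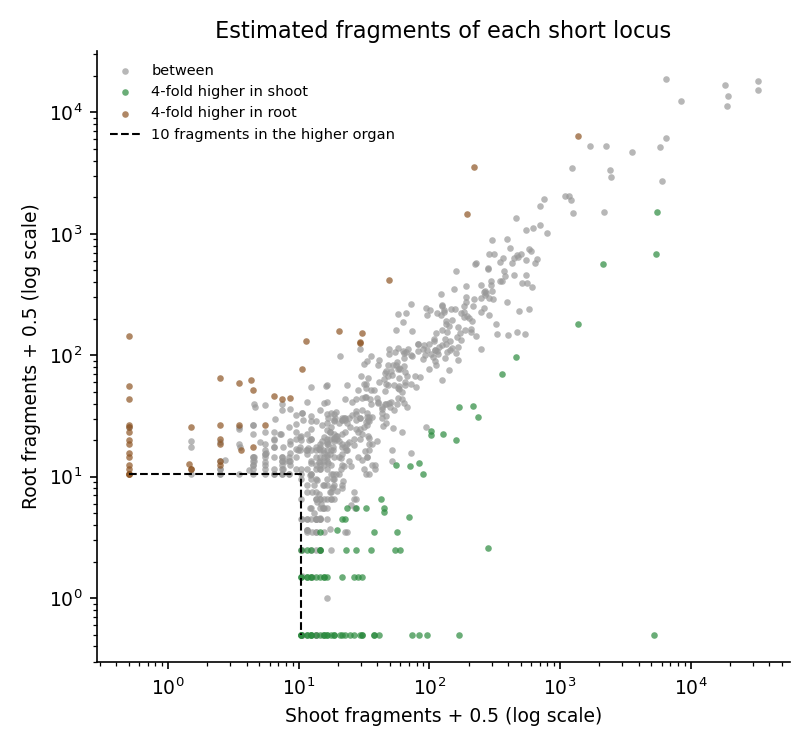
Estimated fragments of each short locus in shoot and in root, with 0.5 added, both on log scales; colours mark loci that differ 4-fold on the log2(FPKM + 1) scale, and the dashed line marks 10 fragments in the higher organ. No locus lies inside the dashed corner beyond rounding, and the 56 loci listed at 0 in 1 organ line the edges.

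The highest levels of the class rested on very different numbers of fragments. A locus on chromosome 3, between 202363498 and 202363649, had 46810 FPKM in shoot against 31300 FPKM in root, from about 19153 and 13542 fragments. One on chromosome 7, between 102651412 and 102651524, had a like level of 31132 FPKM in shoot against 39239 FPKM in root, yet from about 264 and 336 fragments. On chromosome 5, between 52421627 and 52421741, the values were 9086 FPKM (shoot) and 8972 FPKM (root), each from about 110.0 fragments. Those high values were close to equal between organs or less than 2-fold apart. The fourth highest, on chromosome 5 between 80446326 and 80446528, was 2.65-fold higher in root, with 2640 FPKM (shoot) and 7009 FPKM (root) from about 6510 and 19001 fragments. Above a mean of 1000 FPKM stood 43 short loci, of which 28 spanned 150 bases or less. Their totals ran from 24.4 to 50811 fragments, with a median of 220.3.

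At a limit of 1 FPKM, most short loci were found in both organs. At least 1 FPKM in both was reached by 605 (82.0%), in shoot alone by 83 (11.2%) and in root alone by 50 (6.78%). The other nuclear loci alone at their position gave shares of 83.3%, 9.997% and 6.66%. Up to 170 bases in shoot and 168 in root a single fragment reaches 1 FPKM, so these shares rest on unlike numbers of fragments. With 10 fragments as the limit, 451 short loci (61.1%) were found in both organs. The Spearman coefficient between organ levels was 0.74 over all 738 and 0.93 over the 451 with 10 fragments in both. It is again over loci of the same library pair, and the 451 leave out loci low in an organ. FPKM fell with span in both organs, and the part of span in the coefficient was not tested. Within the span classes, from shortest to longest, it was 0.54, 0.63, 0.80 and 0.71. Shoot had the higher FPKM at 377 loci and root at 361. The organ ratio is given as log2((root FPKM + 1) / (shoot FPKM + 1)), and its median was -0.05 for short loci against 0.08 for the others. The sign of the median for short loci depended on the scale, as it was 0.06 with 5 fragments added in place of 1 FPKM. An example of near-equal level is the locus on chromosome 2 between 185380843 and 185381073, with 132 FPKM (shoot) and 130.1 FPKM (root) from about 552 and 608 fragments.

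Differences of 4-fold or more took a larger share of short loci than of the table at large. On the log2(FPKM + 1) scale, 89 short loci (12.1%, exact 95% binomial interval 9.80 to 14.6%) were higher in shoot, beside 7.08% of all 24534 nuclear loci alone at their position. Higher in root were 45 (6.10%, interval 4.48 to 8.07%), beside 3.73%. These intervals cover counting of loci only. The classes next in length stood on either side of these shares over all loci. Toward shoot and toward root, 4-fold was passed by 2.81% and 2.66% of loci of over 300 to 500 bases. Of loci of over 500 to 1000 bases, 8.52% and 7.35% passed it. Toward shoot both classes were below the short loci, and toward root the longer class was above them. The 89 had medians of 60.1 FPKM (shoot) and 1.39 FPKM (root), which in fragments is 25.9 against 1.001. The 45 had medians of 36.0 FPKM (root) and 2.31 FPKM (shoot), or 26.0 against 2.002 fragments.

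Few fragments in the lower organ marked these loci. Root held under 3 fragments in 59 of the 89 loci higher in shoot, of which 33 were listed at 0, and shoot did in 25 of the 45 higher in root, of which 15 were listed at 0. A listed 0 can be a failed estimate rather than a count, and without such loci 56 passed 4-fold toward shoot and 30 toward root. An exact 95% binomial interval on the split of fragments covers counting error only. By it, the fold lay wholly above 4 for 38 of the 89 higher in shoot and 17 of the 45 higher in root. Both counts include loci listed at 0 in the lower organ, where the 0 was taken as a count and not as a failed estimate. The 89 and the 45 were taken for passing 4-fold on the same values, so this is a description only. The share higher in shoot moved with the number of fragments on this scale. It was 25.8% of the 132 loci with under 20 fragments in all, 10.4% of the 259 with 20 to under 50, 9.60% of the 177 with 50 to under 200 and 6.47% of the 170 with 200 or more. The share higher in root showed no steady order, at 10.6%, 4.63%, 8.47% and 2.35% of the same classes. A scale with 5 fragments added in each organ in place of 1 FPKM was chosen after the values were seen. On it the shares rose and then fell across the same classes. Higher in shoot were 5.30%, 7.72%, 8.47% and 5.29%, and higher in root 1.52%, 4.63%, 7.34% and 2.35%. A locus with under 20 fragments passes 4-fold on this scale only with almost none in the other organ. The lowest class therefore cannot show whether the trend holds. A locus with 10 fragments in 1 organ alone had to differ to some degree: 72 of the 164 such loci of shoot passed 4-fold, and 35 of the 123 of root. Over all short loci, 431 (58.4%) lay within 2-fold, beside 73.1% of the other loci alone at their position. Among the 451 with 10 fragments in both, 357 (79.2%) lay within 2-fold, 17 (3.77%) passed 4-fold toward shoot and 10 (2.22%) toward root. That choice in turn leaves out loci near 0 in an organ, so these shares and the 7.08% and 3.73% do not cover like loci.

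The share past 4-fold also moved with span, along which the pseudocount of 1 FPKM stands for a changing part of a fragment. Up to 150 bases, 38 loci (22.9%) passed 4-fold toward shoot and 16 (9.64%) toward root, and over 250 to 300 bases 9 (4.69%) and 4 (2.08%) did. In shoot, 1 FPKM is 0.00698 fragments at the shortest span and 9.89 fragments at 300 bases. With 5 fragments added instead, 4-fold was passed toward shoot by 51 loci (6.91%) and toward root by 31 (4.20%). From the shortest to the longest span class, the share higher in shoot was then 11.4%, 5.53%, 6.63% and 4.69%. The share higher in root no longer fell with span, at 3.01%, 4.02%, 4.97% and 4.69%. All 51 were among the 89, and 25 of the 31 were among the 45.

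**Figure D3:**
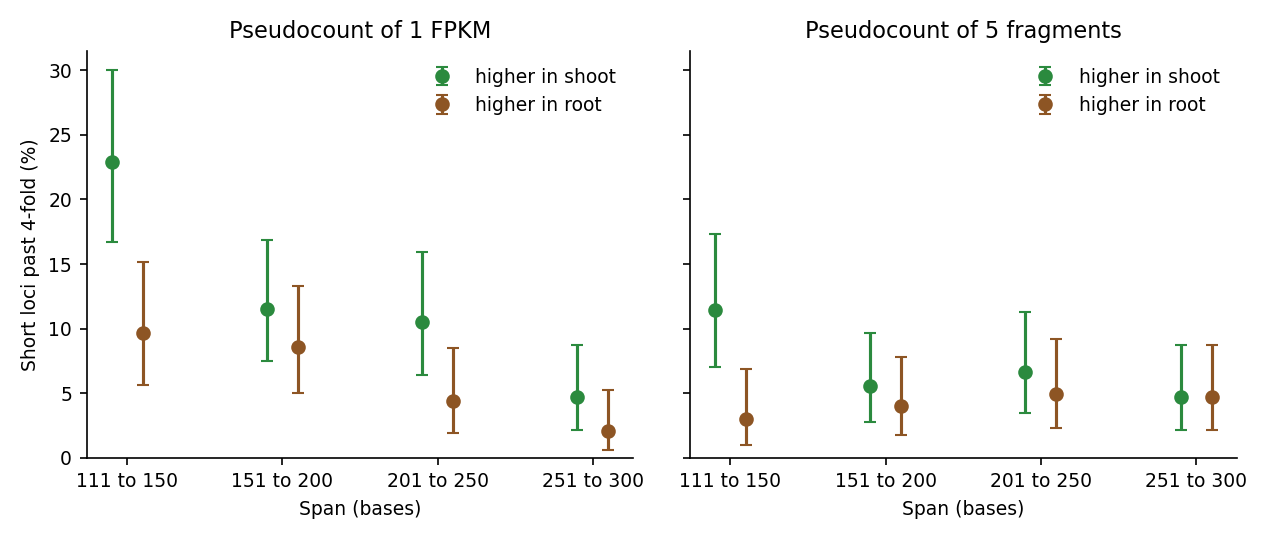
Share of short loci past 4-fold in each span class, with a pseudocount of 1 FPKM (left) and of 5 fragments (right); points are shares in percent and bars exact 95% binomial intervals over loci. With 1 FPKM the share higher in shoot fell from 22.9% to 4.69% across the classes, and with 5 fragments from 11.4% to 4.69%.

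Toward shoot, the 4 largest ratios on the log2(FPKM + 1) scale, among loci above 0 in both organs, rested on very few root fragments. Folds printed for them are of plain FPKM, which would rank loci otherwise. On chromosome 6, between 14411275 and 14411393, shoot had 1336 FPKM and root 43.8 FPKM, a 30.5-fold difference on about 29.9 fragments against 0.998, with an exact interval of 5.07 to 1245-fold. On chromosome 1, between 12944066 and 12944349, shoot had 33.7 FPKM and root 0.220 FPKM, from about 279.995 fragments against 2.07. That 153-fold difference had an interval of 43.3 to 1309-fold, whose lower bound was the highest of the 4. On chromosome 7, between 164371516 and 164371654, shoot had 148 FPKM and root 5.45 FPKM, from about 26.0 fragments against 1.001. On chromosome 8, between 38150028 and 38150191, shoot had 80.2 FPKM and root 2.54 FPKM, from about 58.9 fragments against 1.997.

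Toward root, the best covered of the 4 largest ratios lay on chromosome 10 between 142811236 and 142811449. Root had 1036 FPKM there and shoot 70.0 FPKM, a 14.8-fold difference with an interval of 12.9 to 17.004-fold, from about 3557 and 218 fragments. The largest ratio was also on chromosome 10, between 115686177 and 115686309, with 577 FPKM (root) and 18.6 FPKM (shoot). It came from about 64.1 fragments against 2.002, so its 31.0-fold difference had an interval of 8.22 to 261-fold. On chromosome 9, between 82029970 and 82030139, root had 58.5 FPKM and shoot 3.20 FPKM, from about 59.0 and 2.998 fragments. On chromosome 8, between 41175416 and 41175566, root had 317.5 FPKM and shoot 28.4 FPKM, from about 130 and 10.97 fragments.

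Loci listed at 0 in an organ took a larger share of this class than of the table. There were 56 (7.59%), and over all nuclear loci alone at their position 0.978% were listed at 0 in 1 organ. The share fell with length, to 4.38% over 300 to 500 bases, 2.23% over 500 to 1000 and 0.525% over 1000 bases. Of the 56, 40 were at 0 in root and 16 at 0 in shoot, and no fold is given for them. The 40 had a median of 16.0 fragments in shoot, and 16 of them had 20 or more. The 16 at 0 in shoot had a median of 18.8 fragments in root, and 8 had 20 or more.

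Of the loci at 0 in root, the highest in shoot was XLOC_005287 on chromosome 1 between 164944853 and 164944965, with 1769 FPKM. That is about 15.0 fragments, and taking 3 fragments as the limit, a count of 0 in root allows up to 350.3 FPKM at its span. Next came XLOC_038403 on chromosome 9 between 5865884 and 5866003, with 1125 FPKM in shoot from about 28.9 fragments, where 0 in root allows up to 114 FPKM. The third rested on far more fragments. On chromosome 1 between 281715217 and 281715514, 543 FPKM in shoot came from about 5212 fragments, and 0 in root allows up to 0.277 FPKM. Of the 40, it was the 1 locus with 200 fragments or more. All such limits hold only where a listed 0 is a count and not a failed estimate, which was not tested.

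Of the loci at 0 in shoot, the highest in root was XLOC_025252 on chromosome 5 between 26502929 and 26503050. It had 673 FPKM from about 23.0 fragments, and 0 in shoot allows up to 89.7 FPKM. Next came XLOC_024141 on chromosome 5 between 93912321 and 93912456, with 180.5 FPKM in root from about 26.1 fragments. The third, on chromosome 9 between 11737968 and 11738101, had 162 FPKM in root from about 19.7 fragments. The largest fragment number among these 16 was 144.

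Of the 170 short loci with at least 200 fragments in all, 15 passed 4-fold, 11 (6.47%) toward shoot and 4 (2.35%) toward root. These shares were no larger than the 7.08% and 3.73% of all nuclear loci alone at their position, which were not split by fragments. The 11 include the locus named above with about 5212 fragments in shoot and a listed 0 in root. The loci in the rest of this paragraph were picked out after their values were seen. On chromosome 10 between 1805794 and 1806022, shoot had 1338 FPKM and root 152 FPKM, from about 5435 and 686 fragments. On chromosome 5 between 210831234 and 210831443, shoot had 480.1 FPKM and root 56.5 FPKM, from about 1376 and 179 fragments. On chromosome 7 between 95840120 and 95840330, root had 1985 FPKM and shoot 472 FPKM, from about 6412 and 1380 fragments. The first was 8.81-fold higher in shoot (8.14 to 9.55), the second 8.495-fold higher in shoot (7.25 to 9.97) and the last 4.21-fold higher in root (3.97 to 4.46), so counting error was small beside these folds.

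Short loci lay about as far from other listed positions as longer loci did. The gap to the nearest other of the 26802 nuclear positions, edge to edge, had a median of 12255 bases with quartiles of 1879 and 40024. For the other loci alone at their position the median was 10465.5 bases, with quartiles of 1899 and 42662. Within 1 kb of one lay 137 of the 738 (18.6%, exact binomial interval 15.8 to 21.6%), beside 16.3% of the others and 22.3% of loci of over 300 to 500 bases. Beyond 100 kb lay 70 (9.49%, interval 7.47 to 11.8%), beside 7.56% of the others. Up to 150 bases the median gap was 17694 bases and 38.0% had a neighbour within 10 kb. In the other 3 span classes the median was 9635 to 10912 bases, and 49.0% to 50.8% had one.

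**Figure D4:**
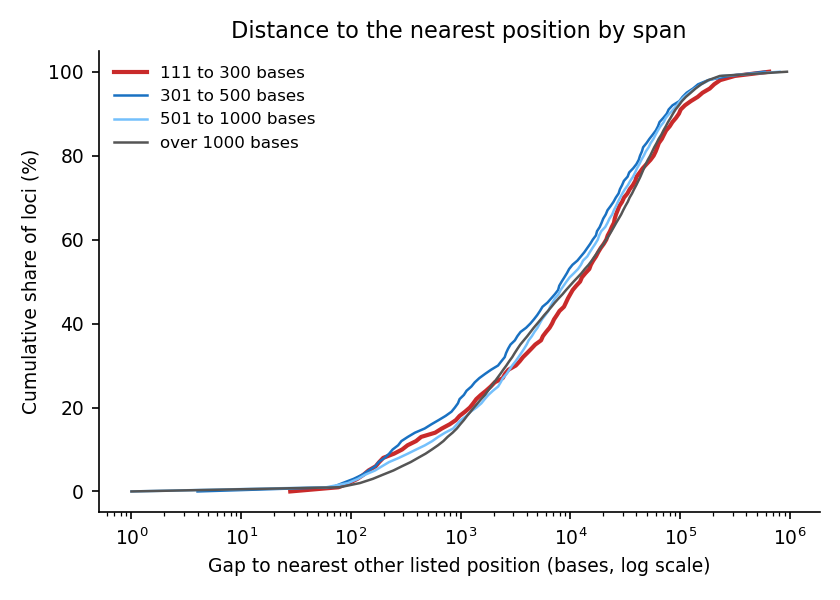
Cumulative share of loci, in percent, against the gap in bases to the nearest other listed position on a log scale, by span class. The line of the short loci runs close to the others and crosses that of loci over 1000 bases; the medians are 12255 bases for short loci and 8324 bases for loci of over 300 to 500 bases.

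The nearest neighbour of any short locus lay 28 bases away. On chromosome 10, the short locus between 148233322 and 148233583 followed a locus of 4647 bases, with 1.85 FPKM (shoot) and 3.85 FPKM (root) beside 24.2 and 38.4 FPKM. On chromosome 7, the short locus between 173553626 and 173553783 stood 61 bases from a locus of 1811 bases, with 19.7 FPKM (shoot) and 37.0 FPKM (root) beside 231 and 374 FPKM. In both pairs the short locus was the lower and both loci had more FPKM in root. The most isolated short locus stood 647470 bases from its neighbour, on chromosome 9 between 52061308 and 52061568, with 3.28 FPKM in shoot and a listed 0 in root. The next stood 544063 bases from its neighbour, on chromosome 1 between 133569916 and 133570032, with 419 FPKM (shoot) and 589 FPKM (root) from about 6.99 and 9.99 fragments.

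Neighbours within 1 kb had organ ratios like those of the short locus. Over the 137 short loci with such a neighbour, the log2 ratios of locus and neighbour had a Pearson coefficient of 0.64, a Spearman coefficient of 0.69 and the same sign in 78.1% of cases. Where a position held several loci, their FPKM were summed. At gaps over 1 to 10 kb the Spearman coefficient was 0.07 over 211 loci with 50.2% of the same sign, and over 10 kb 0.05 over 390 loci with 52.3%. Over the 4206 other positions with a neighbour within 1 kb it was 0.22, with 58.9% of the same sign. The next classes up lay between. Within 1 kb the Spearman coefficient was 0.62 over 143 loci of over 300 to 500 bases, and 0.48 over 304 of over 500 to 1000 bases. These coefficients describe loci of 1 library pair that share depth, and some pairs enter from both sides, since 23 of the 137 have another short locus as their neighbour. No difference between them was tested.

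Leaving out neighbours of up to 300 bases changed this little. Over the remaining 113, the Spearman coefficient was 0.66 and 76.1% had the same sign. Fragment number moved with the coefficient: over the 65 short loci with 50 fragments or more the Pearson coefficient was 0.88 and the Spearman coefficient 0.75, and over the 72 with fewer they were 0.44 and 0.63. The share of the same sign did not follow, at 76.9% and 79.2%. The part of fragment number in the result was not tested. Within 1 kb the median over loci of the mean FPKM of both organs was 18.2 FPKM for short loci and 15.6 FPKM for their neighbours, and 57 of the 137 lay below their neighbour.

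**Figure D5:**
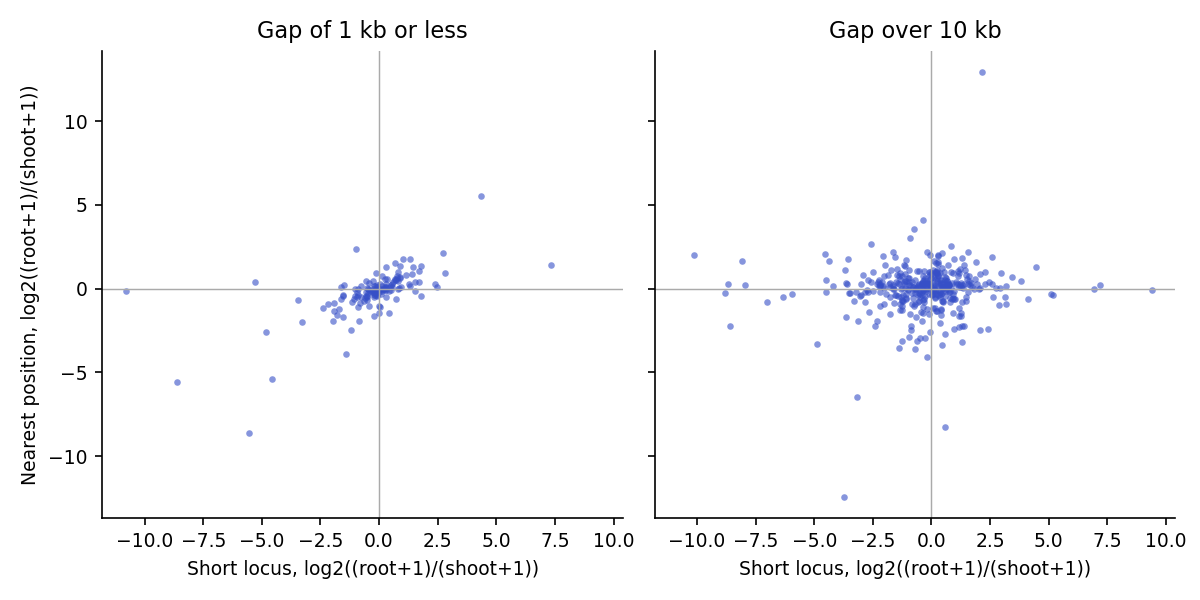
Organ ratio of each short locus against that of its nearest other position, both as log2((root FPKM + 1) / (shoot FPKM + 1)), by gap; each point is a short locus. At gaps of 1 kb or less 78.1% of the 137 points share a sign, and over 10 kb 52.3% of the 390.

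Of the 134 short loci past 4-fold, 15 (11.2%) had a nearest position past 4-fold in the same direction and 9 in the opposite one. Over the other positions 311 of 2723 (11.4%) shared the direction, a like share, and 105 were opposite. Within 1 kb the counts were 6 and 0 among 16 short loci past 4-fold, beside 52 and 10 among 382 other positions. Of those other positions, 4 of 5 of over 300 to 500 bases and 8 of 36 of over 500 to 1000 bases shared the direction. The 6 were picked out by this rule after their values were seen. On chromosome 1 a pair of short loci stood 904 bases apart, between 290436519 and 290436714 and between 290437618 and 290437757. Their shoot levels were 45.8 and 387 FPKM, from about 95.7 and 73.5 fragments, and root was listed at 0 for both. Each is the nearest position of the other, so this pair enters the 6 from both sides. The short locus on chromosome 1 between 12944066 and 12944349, named above for its 153-fold difference, neighboured a locus of 2745 bases with 5.07 FPKM in shoot and 0 in root. On chromosome 2, the short locus between 88614582 and 88614803 had 23.0 FPKM in shoot and a listed 0 in root, 145 bases from a locus with 137 FPKM (shoot) and 2.22 FPKM (root).

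The other two of the 6 were higher in root. On chromosome 5, the short locus between 17891077 and 17891296 had 380.4 FPKM (root) and 55.8 FPKM (shoot), from about 1466 and 194 fragments. Its neighbour, 187 bases away and spanning 624 bases, had 42.0 FPKM (root) and 8.76 FPKM (shoot). On chromosome 8, the short locus between 4359171 and 4359365 had 19.3 FPKM in root and a listed 0 in shoot, 585 bases from a locus with 155 FPKM (root) and 2.36 FPKM (shoot). Some short loci were thus above and some below a neighbour that went the same way. Without strand or exon structure, a short locus that continues its neighbour and a separate transcript cannot be told apart.

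Short loci occurred on all 10 chromosomes at similar frequency. They made up 2.38% of the loci alone at their position on chromosome 6, the lowest share, and 3.601% on chromosome 10, the highest. Median shoot levels ran from 7.90 FPKM on chromosome 6 to 25.8 FPKM on chromosome 8. Median root levels ran from 9.52 FPKM on chromosome 6 to 24.0 FPKM on chromosome 5. On each of the 10 chromosomes more short loci were past 4-fold toward shoot than toward root. The counts were 15 to 5 on chromosome 1 and 7 to 6 on chromosomes 6 and 8. Over all 24534 nuclear loci alone at their position, 1736 passed toward shoot and 916 toward root. An excess toward shoot was thus not particular to short loci.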

How the data were processed

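Polyadenylated RNA of maize shoots and roots was sequenced, 1 library per organ. Values are FPKM per assembled locus, as deposited by the authors, and were not rescaled. Per the submitters' processing notes, the tools were TopHat, Cufflinks and Cuffdiff; versions and settings were not given in the sources used here. The build is B73 RefGen_v2, per the file headers. Both columns were matched to samples by name, and 0 were left unused. Fragment numbers were estimated by dividing FPKM by the worth of 1 fragment at a locus's span. That worth was the largest step giving whole multiples, within 0.03, of at least 4 values per span. It was smoothed by a polynomial of degree 5 in the log of the span less 100 bases, leaving out steps more than 1% off, and tested on simulated data. A fraction of the true worth would also give whole numbers. Fragments without molecular identifiers are not independent molecules, so intervals (Clopper-Pearson) and limits of 3 fragments cover counting error only. Named loci are, by rule, the 4 highest by mean FPKM and the 4 largest ratios per direction above 0 in both organs. Those ratios are on the log2(FPKM + 1) scale. Also named are the 3 highest per organ listed at 0 in the other, the 2 nearest and 2 farthest. The last are the 2 most equal at 100 FPKM or more. The members and rules were chosen with earlier results of these data known. At most 2 locus identifiers per direction are printed, and no gene names, since the gene table at hand is of a later assembly. A difference was counted at 4-fold on log2(FPKM + 1). The fragment estimate, the pseudocount of 5 fragments and the minimum of 20 fragments were chosen after the values were seen. Alternatives were other pseudocounts, folds, spans, minimum levels, scaling and neighbour sets. Scripts ran in Python 3.11.15 (scipy 1.17.1, numpy 2.4.6, pandas 2.3.3), with plots from matplotlib 3.10.9.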

Additional observations from a re-analysis of the deposited data

How the results depend on the processing

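In all, 11 alternatives gave 57 values, of which 31 stayed close to those reported: counts within 1.5 times, medians within their 95% order-statistic interval over loci. More short loci were higher in shoot than in root under each alternative that bears on these counts. All nuclear loci alone at their position also leaned that way at the reported setting, with 7.08% higher in shoot and 3.73% in root. Shares over all loci were not computed under the alternatives. Counts higher in shoot and in root were 59 and 26 with a pseudocount of 5, 181 and 126 at 2-fold, 47 and 19 at 8-fold, and 51 and 29 with spans over 150 bases. Without loci listed at 0, 56 were higher in shoot, with at least 20 fragments in all 55, and with 5 fragments as pseudocount 51. The last 2 settings were chosen after seeing the data. Short loci sharing a 4-fold direction with their neighbour numbered 36 with a pseudocount of 0.1, 7 with one of 5, 63 at 2-fold, 7 at 8-fold, 9 with spans over 150 bases and 8 without loci listed at 0. Median levels in shoot and root were 10.2 and 9.98 FPKM with spans over 150 bases, 39.4 and 36.2 FPKM for loci with a mean of at least 5 FPKM, and 23.6 and 23.8 FPKM with at least 20 fragments. Loci listed at 0 then numbered 34, 33 and 24. The median organ ratio stayed between -0.14 and 0.06 on the log2 scale, so its sign depended on the setting, and it was 0.02 without loci listed at 0. Distances to the nearest position stayed close under each alternative run. Fewer loci enter the settings that drop loci, and the cause of other changes was not tested. No paired analysis was possible because each organ has 1 library, and none could be left out. Few fragments lie behind most short loci: 53.0% rest on fewer than 50.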
